A study of Mus musculus with 24 samples.

Results

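Glucose uptake and glycolysis were followed through 10 genes, taken by symbol from a table of 16617 genes: the transporters Slc2a1 and Slc2a3, the hexokinases Hk1 and Hk2, the phosphofructokinases Pfkp and Pfkl, and Pgk1, Pkm, Ldha and Pdk1. All 10 were measured. RNA of mouse embryonic stem cells was sequenced as 3' tags in 8 groups, each a line (of 4) in 1 of 2 states and each with 3 labelled replicates (24 samples). The labels give R1 as the background of the wild-type (WT) and of the MLL3CD_MLL4CD line, the latter called catalytic-dead here. The MLL3KO_MLL4fl line, called floxed, carries the MLL3 knockout, so that the MLL3KO_MLL4KO line, called knockout, differs from it by the loss of MLL4. MLL3 and MLL4 are histone methyltransferases that act at enhancers. Naive cells grew in LIF2i medium, that is with LIF and a pair of kinase inhibitors, and the formative state was taken 63 h after its withdrawal. Each genotype is represented by its own line, so a difference between lines cannot be told apart from the genotype.

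Cells take up glucose through facilitative transporters. Hexokinases phosphorylate it and phosphofructokinase makes the committed step of glycolysis. Pgk1 encodes an enzyme of the steps that yield ATP, Pkm encodes pyruvate kinase, and Ldha encodes a lactate dehydrogenase subunit that turns pyruvate into lactate. Pdk1 encodes a kinase that inhibits pyruvate dehydrogenase and so limits the entry of pyruvate into mitochondria. Pluripotent cells are known for a high rate of glycolysis, and primed cells for depending on it more than naive cells. Several of these genes are known targets of the hypoxia-inducible factors, whose core site reads ACGTG or GCGTG, and of MYC.

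The 4 promoters below belong to members with opposite differences between the states: Slc2a1 and Pfkl were higher in formative cells of every line, Hk2 and Pfkp lower. Each sequence is the 250 bases before the RefSeq start on GRCm38.p6, 5′ to 3′ on the gene's strand, with ACGTG or GCGTG of either strand in capitals (CACGT and CACGC are their reverse complements).
Slc2a1 (plus strand, chr4:119108495-119108744): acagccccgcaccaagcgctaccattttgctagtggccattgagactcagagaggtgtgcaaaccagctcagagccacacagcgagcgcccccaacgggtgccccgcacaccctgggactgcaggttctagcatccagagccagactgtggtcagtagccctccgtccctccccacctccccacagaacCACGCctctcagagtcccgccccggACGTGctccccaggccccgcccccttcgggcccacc
Pfkl (minus strand, chr10:78009808-78010057): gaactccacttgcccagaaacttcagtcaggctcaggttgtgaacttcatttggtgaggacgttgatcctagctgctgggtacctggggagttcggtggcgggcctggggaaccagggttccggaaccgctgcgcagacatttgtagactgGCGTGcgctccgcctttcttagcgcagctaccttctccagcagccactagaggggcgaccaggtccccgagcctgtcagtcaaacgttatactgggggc
Hk2 (minus strand, chr6:82774455-82774704): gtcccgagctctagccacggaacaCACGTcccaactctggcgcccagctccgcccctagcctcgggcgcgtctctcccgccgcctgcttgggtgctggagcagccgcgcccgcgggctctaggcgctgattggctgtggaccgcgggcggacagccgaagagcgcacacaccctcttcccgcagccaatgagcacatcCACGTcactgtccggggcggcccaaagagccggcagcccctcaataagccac
Pfkp (minus strand, chr13:6648772-6649021): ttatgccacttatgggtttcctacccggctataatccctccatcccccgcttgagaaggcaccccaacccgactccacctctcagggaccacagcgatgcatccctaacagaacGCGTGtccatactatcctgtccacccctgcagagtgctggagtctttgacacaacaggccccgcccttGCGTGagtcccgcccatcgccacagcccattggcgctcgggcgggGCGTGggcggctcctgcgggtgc
The words stood in all 4, on either side of the difference. RefSeq entries were matched for 9 members with 13 starts, and 10 of these starts held ACGTG or GCGTG on either strand. Over all 32851 promoters of this length 38.6% held one of the 2 words, 16.6% ACGTG and 28.2% GCGTG. A match is a description of the letters and not evidence of binding.

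The deposited table gives 1 mean of log2 CPM (tag counts scaled to the depth of the library) per group. A CPM below is the back-transformed group mean. In 3' tag sequencing a transcript gives reads at its end, so counts were not divided by length. Counts of single libraries were recovered from the means where only 1 set of whole numbers fitted (libraries a, b and c, by falling depth). The tests rest on the principal recovery unless stated. An extended recovery, chosen after member results had been seen, adds narrower search windows, which limit the spread that can be found. The search succeeded for 23 libraries of 4808564 to 15425959 counts, 2 of them naive WT. Abundant members have a group mean only, with no SD and no test. For Slc2a1, Slc2a3, Hk2, Pfkl, Pkm, Ldha and Pdk1 the formative knockout mean is approximate. A library that also entered the formative catalytic-dead mean was removed from it, and its value was not recovered. As deposited, these means were 230, 964, 223, 72.4, 545, 537 and 112 CPM in that order. Over recovered genes of at least 100 counts the median SD between libraries was 0.16 to 0.256 log2 per group, and the 95th percentile 0.382 to 0.643. Naive markers summed to 2650 to 3000 CPM in the naive and 560 to 764 CPM in the formative groups, and formative markers to 127 to 319 and 1820 to 2810 CPM. Pou5f1, a defining marker of both states, stood at only 5.58 to 9.54 CPM in all 8 groups. The 5 measured fibroblast markers summed to 3.21 to 7.18 CPM in naive and 10.2 to 27.8 CPM in formative groups, with none at 0. Neuroectoderm markers summed to 20.3 to 33.3 CPM in naive and 53.6 to 104 CPM in formative groups, and the 5 measured primitive endoderm markers to 55.2 and 69.2 CPM in naive knockout and catalytic-dead cells against 11.7 and 12.8 CPM in floxed and WT cells. In formative cells these sums were 56.1 CPM in knockout, 21.3 in floxed, 39.8 in catalytic-dead and 31.9 in WT cells. The 7 measured trophoblast markers summed to 219 CPM in naive knockout against 113 CPM in floxed cells. They summed to 157 CPM in naive catalytic-dead against 144 CPM in WT cells, and to 82.7 to 107 CPM in the formative groups. In each of these naive comparisons 6 of 7 were at least 1.5-fold higher (15% and 21.7% of all genes). In naive knockout cells 1 was that much lower (17.7% of all genes), in catalytic-dead cells 0 (13.4%). In naive floxed against WT cells 4 of 7 were higher and 2 lower (12.3% and 13.4% of all genes). The part of these cell types in the results was not tested, and fewer cells of a type cannot be told apart from less RNA per cell. Kmt2c, which encodes MLL3, stood at 15.7 to 23.4 CPM in the floxed and knockout groups and at 35.4 to 67.4 CPM in the others. Kmt2d, which encodes MLL4, stood at 17.6 and 20.2 CPM in knockout and 28.8 and 25.5 CPM in floxed cells, and tags at the 3' end do not test the deletions.

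**Figure D1:**
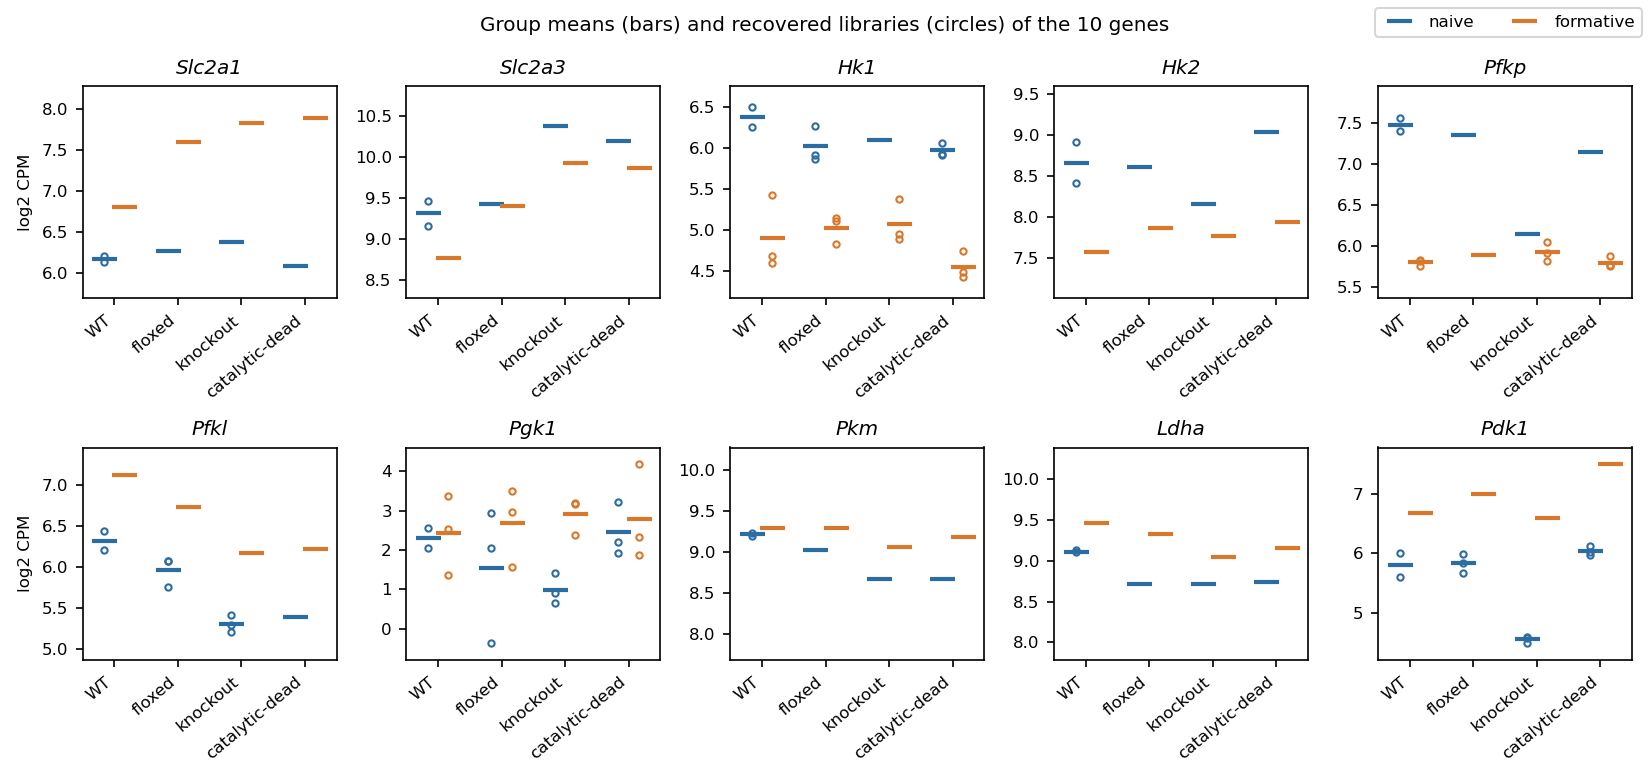
Level of each member (vertical axis, log2 CPM; each panel has its own range) in the 4 lines (horizontal axis), naive in blue and formative in orange. Bars are group means and open circles are libraries whose counts were recovered; Hk1 and Hk2 lie lower in formative cells of every line, and Slc2a1, Pfkl and Pdk1 higher.

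From naive to formative WT cells 3 members were at least 1.5-fold higher (Slc2a1, Pfkl and Pdk1) and 3 at least 1.5-fold lower (Hk1, Hk2 and Pfkp). Of all genes 29.1% were that much higher and 17.4% lower, and of the 4826 genes with a mean of at least 5 log2 CPM, as 9 members have, 14.3% and 12%. Scaling to the median of these more abundant genes (0.07 log2) moved the split to 2 higher and 4 lower. In the floxed line 5 members were higher, these 3 with Pgk1 and Ldha, and 3 were lower (29.0% and 16.7% of all genes, 14% and 13.7% of the more abundant ones). In the knockout line 4 were higher and 1 lower (30.2% and 11.6%, of the more abundant genes 14.6% and 8.64%), and in the catalytic-dead line 3 were higher and 3 lower (25.5% and 16.8%, of the more abundant genes 9.2% and 13.2%). The members' median difference was 0.10, 0.43, 0.36 and 0.38 log2 in the WT, floxed, knockout and catalytic-dead lines, beside 0.14, 0.13, 0.19 and 0.06 over all genes.

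**Figure D2:**
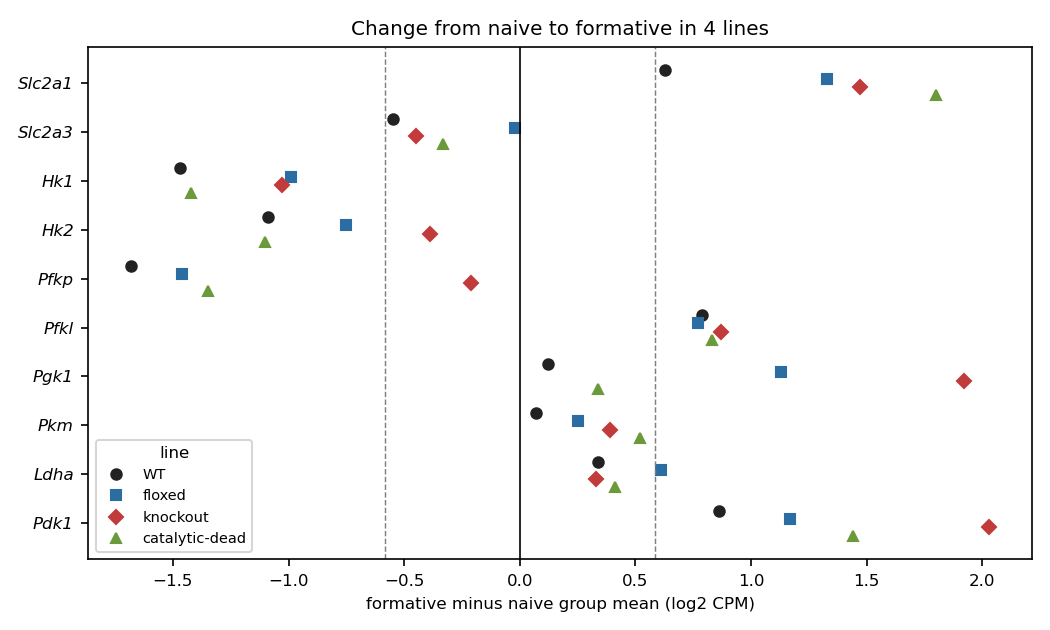
Difference of group means, formative minus naive (horizontal axis, log2 CPM), of each member (vertical axis) in the 4 lines (symbols); dashed lines mark 1.5-fold. Pfkp stands at -1.68, -1.46 and -1.35 in the WT, floxed and catalytic-dead lines and at -0.21 in the knockout line.

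Slc2a1 (chromosome 4, 119108711 to 119137983, GRCm38) encodes the transporter GLUT1. Its naive means lay close together at 71.8 CPM in WT, 77.3 in floxed, 82.5 in knockout and 67.8 in catalytic-dead cells. The 2 naive WT libraries held 1048 and 616 counts, or 73.6 and 69.7 CPM. Its formative means were 111, 195, 228 and 236 CPM in the same order, so each line stood above its naive cells, by 0.63, 1.33, 1.47 and 1.80 log2. The formative order put WT lowest, and the catalytic-dead mean was 1.09 log2 above it. None of these differences could be tested, since formative library values were not recovered.

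Slc2a3 (chromosome 6, 122727809 to 122801640) encodes GLUT3 and was the more abundant transporter in every group. It stood at 635 CPM in naive WT (572 and 704 CPM in its 2 libraries) and 684 CPM in naive floxed cells. Naive knockout cells had 1330 and naive catalytic-dead cells 1180 CPM, higher by 0.96 and 0.89 log2 than the floxed and WT lines. The formative means were 433, 674, 974 and 935 CPM in WT, floxed, knockout and catalytic-dead cells. The knockout and catalytic-dead lines thus had more Slc2a3 tags than their comparison lines in both states, as untested means. In formative cells the floxed line also stood above WT, by 0.64 log2, and the knockout line above floxed by 0.53 log2. Slc2a1 made up 5.45% to 10.2% of the summed CPM of the 2 transporters in naive and 19.0% to 22.4% in formative groups.

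Hk1 (chromosome 10, 62268855 to 62379908) encodes the hexokinase of most tissues. It fell in WT cells, from 90.3 and 76.0 CPM in the naive libraries to 24.1, 42.6 and 25.5 CPM in the formative ones, with no overlap. The difference was -1.47 log2 (SE 0.24, limma adjusted p = 4.22e-05, 3 against 2 libraries). In this comparison 12.5% of 11661 tested genes fell and 21.3% rose. Without each library in turn the difference was -1.73 to -1.32.

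In the other lines Hk1 had the same direction. The floxed means were 64.7 CPM before and 32.5 CPM after the transition, the knockout means 68.8 and 33.7 CPM, and the catalytic-dead means 62.7 and 23.4 CPM. The naive floxed libraries held 60.1, 77.1 and 58.0 CPM and the formative ones 28.2, 34.3 and 35.0 CPM. The naive catalytic-dead libraries held 66.6, 60.1 and 60.9 CPM and the formative ones 21.2, 26.5 and 22.1 CPM. Neither pair overlaps, but the naive libraries and the formative floxed ones were solved in narrower windows only, so these differences were not tested in the principal recovery. In the extended recovery, Hk1 passed in the floxed (-0.99, SE 0.20, limma adjusted p = 0.000369) and catalytic-dead lines (-1.42, SE 0.18, limma adjusted p = 4.53e-07), where 10.0% and 13.2% of tested genes fell. In the principal recovery these shares were 9.0% and 12.2%, with 19.1% and 19.3% rising. The formative knockout libraries held 29.5, 41.4 and 30.8 CPM. The level of Hk1 in formative catalytic-dead cells against WT was -0.36 log2 and did not pass (SE 0.22, limma adjusted p = 0.366).

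Hk2 (chromosome 6, 82725025 to 82774454), an inducible hexokinase, was the more abundant of the pair in every group. Naive means were 406 CPM in WT (482 and 341 CPM in its libraries), 392 in floxed, 284 in knockout and 523 in catalytic-dead cells. Formative means lay between 191 and 244 CPM. The difference was -1.09, -0.75, -0.39 and -1.10 log2 in the WT, floxed, knockout and catalytic-dead lines. Summed over both hexokinases, naive groups had 352 to 586 CPM and formative groups 221 to 268 CPM, without a test. Hk1 made up 8.73% to 19.5% of these sums.

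Pfkp (chromosome 13, 6579768 to 6648777) encodes the platelet-type and Pfkl (chromosome 10, 77986947 to 78010083) the liver-type phosphofructokinase. Pfkp stood at 179 CPM in naive WT (188 and 169 CPM in its libraries), 163 in floxed and 142 in catalytic-dead cells, but at 70.3 CPM in naive knockout cells. Its 4 formative means lay between 55.5 and 60.7 CPM, and the 9 formative libraries recovered, of WT, knockout and catalytic-dead cells, between 53.5 and 65.5 CPM. The naive knockout mean was thus near the formative level, 1.21 log2 below naive floxed cells, without a test. In WT cells the difference was -1.68 log2 (SE 0.17, limma adjusted p = 1.63e-07) in the extended recovery only, where 12.5% of tested genes fell and 21.7% rose. The last 500 bases of Pfkp overlap Pitrm1 on the other strand along their whole length. Whether counting used the strand is not stated in the labels, so reads of the 2 genes may not be separated. Pitrm1 itself stood at 11 to 21.4 CPM.

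Pfkl had the other direction. It stood at 80.1, 62.6, 39.4 and 41.9 CPM in naive and at 139, 107, 71.8 and 74.3 CPM in formative WT, floxed, knockout and catalytic-dead cells, a difference of 0.77 to 0.87 log2 in each line. Its naive floxed libraries held 54.1, 67.3 and 66.8 CPM and the naive knockout libraries 38.8, 36.8 and 42.2 CPM, with no overlap. That difference of -0.67 log2 was tested in the extended recovery only (SE 0.16, limma adjusted p = 0.00748; 9.38% of tested genes fell) and was lost without naive floxed library c (-0.62, limma adjusted p = 0.0587). Pfkp made up 64.1% to 77.2% of the pair's summed CPM in naive and 28.6% to 45.8% in formative groups, so the larger share passed from Pfkp to Pfkl in every line.

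**Figure D3:**
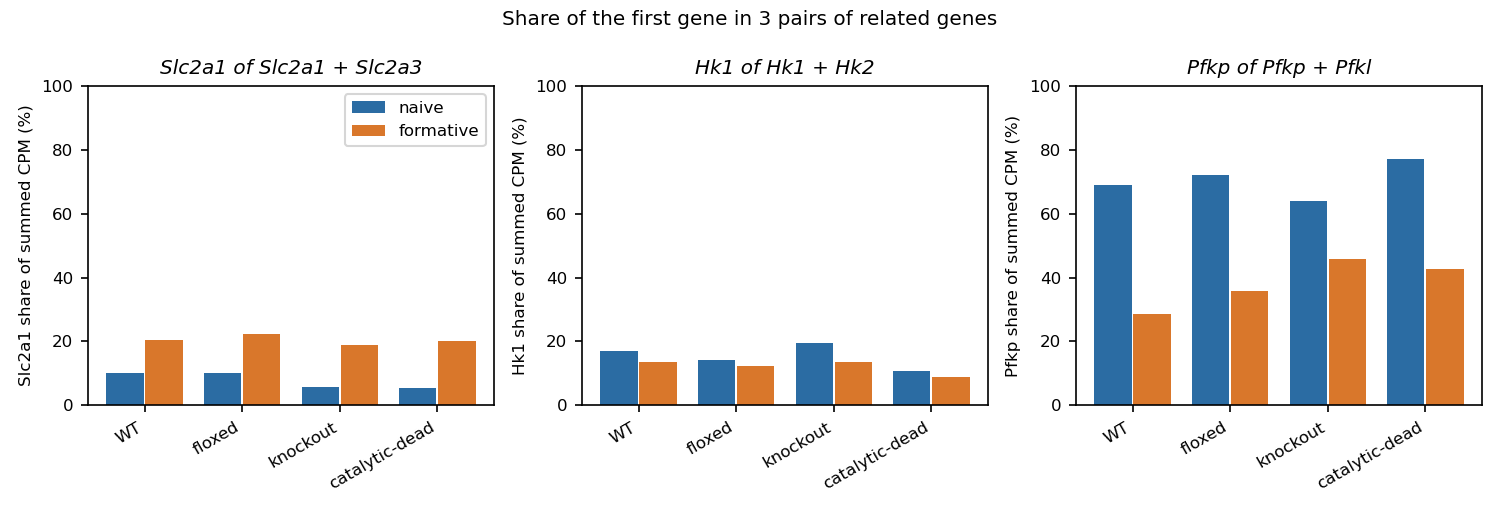
Share of the first gene in the summed CPM (vertical axis, percent, from 0 to 100) of 3 pairs of related genes, by line (horizontal axis) and state (colour), from group means. Pfkp holds 64.1% to 77.2% of its pair in naive and 28.6% to 45.8% in formative groups; Slc2a1 holds more of its pair in formative than in naive cells of each line.

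Pgk1 (chromosome X, 106187100 to 106203699) had few tags, and every library was recovered. Its level was 5.69 and 3.96 CPM in naive WT libraries and 7.45, 0.577 and 3.93 CPM in naive floxed ones, the last 3 from 80, 6 and 26 counts. The formative libraries of WT held 2.38, 10.2 and 5.58 CPM and those of floxed cells 2.75, 11.2 and 7.56 CPM, so the groups of both lines overlap. The catalytic-dead line overlaps too, with 9.06, 4.41 and 3.61 CPM in naive and 4.79, 17.9 and 3.47 CPM in formative libraries. In the knockout line the naive libraries held 2.46, 1.69 and 1.36 CPM and the formative ones 8.82, 8.99 and 4.99 CPM, with no overlap. Pgk1 rose there by 1.92 log2 (SE 0.63, limma adjusted p = 0.0197), as did 24.4% of 10770 tested genes, while 5.94% fell. Without formative knockout library a the limma adjusted p was 0.0479. The other 3 lines did not pass (0.12, 1.13 and 0.34 log2 in WT, floxed and catalytic-dead cells, limma adjusted p = 0.912, 0.236 and 0.677). The difference between the knockout and floxed transitions was 0.79 log2 and did not pass (SE 0.93, limma adjusted p = 0.683). Of the 50-base windows at the Pgk1 3' end 7.3% occur in other genes, Pgk1-ps1 and Pgk1-rs7 among them. Its level is low for a gene of this pathway, and so were those of Gapdh (2.16 to 4.19 CPM) and Pgam1 (1.01 to 1.91 CPM), which encode neighbouring steps. For Gapdh 90.5% of such windows occur in other genes, for Pgam1 0%.

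Pkm (chromosome 9, 59656368 to 59679375) and Ldha (chromosome 7, 46841475 to 46855627) varied least. Pkm ranged from 407 to 627 CPM over the 8 groups, and its naive WT libraries held 602 and 589 CPM. Ldha ranged from 419 to 703 CPM, with 548 and 560 CPM in the naive WT libraries. Both were higher in formative than in naive cells of each line, Pkm by 0.07 to 0.52 and Ldha by 0.33 to 0.61 log2, without a test.

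Pdk1 (chromosome 2, 71873224 to 71903858) had the widest span of the members, 2.93 log2 or 7.59-fold. It was highest in formative catalytic-dead cells (179 CPM), followed by formative floxed cells (128 CPM). Formative WT cells had 102 CPM. The formative knockout mean of 96.2 CPM is approximate, since the value of the library removed from it was not recovered, and the mean as deposited, 112 CPM, lies above WT, so these 2 groups have no settled order. The naive means were 65.9 CPM in catalytic-dead, 56.9 in floxed, 55.9 in WT and 23.6 in knockout cells. The naive knockout libraries held 22.4, 24.1 and 23.9 CPM and the naive floxed ones 50.8, 63.2 and 56.7 CPM, with no overlap. The difference was -1.27 log2, tested in the extended recovery only (SE 0.17, limma adjusted p = 1.31e-05), and -1.35 to -1.19 without each library in turn. In that recovery 9.38% of tested genes fell and 8.01% rose in this comparison. The naive floxed and WT libraries overlapped (48.5 and 63.9 CPM in WT). The knockout line had the largest difference between states, 2.03 log2 with that approximate mean, from the lowest naive level.

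Against the floxed line, naive knockout cells had 1 member at least 1.5-fold higher, Slc2a3, and 3 lower, Pfkp, Pfkl and Pdk1. Of all genes 15% were that much higher and 17.7% lower, and of genes with a mean of at least 5 log2 CPM 6.01% and 7.34%. In formative cells none passed 1.5-fold (18.4% of all genes higher and 15.2% lower, 11.1% and 5.55% of the more abundant ones). By limma 7.31% of tested genes rose and 9.09% fell in naive and 10.4% rose and 6.28% fell in formative knockout cells, and no member did in the principal recovery. Pgk1, the 1 member tested there, had an unadjusted p over 0.05 in both. Naive catalytic-dead cells against WT had Slc2a3 higher and Pfkl lower (21.7% and 13.4% of all genes, 12.7% and 5.99% of the more abundant ones). In formative catalytic-dead cells Slc2a1, Slc2a3 and Pdk1 were higher by 1.09, 1.11 and 0.82 log2 and Pfkl lower by -0.90 log2 (15.4% and 11.2% of all genes, 6.34% and 5.06% of the more abundant ones). In all 4 of these comparisons Slc2a3 was higher (0.53 to 1.11 log2) and Pfkl lower (-0.93 to -0.57 log2). Both were under 1.5-fold in formative knockout cells, where median centring put Slc2a3 at 0.43 and Pfkl at -0.67 log2. Pkm and Ldha were lower in all 4 too (-0.55 to -0.11 and -0.37 to -0.01 log2). The share of all genes with the same direction in all 4 was not counted.

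**Figure D4:**
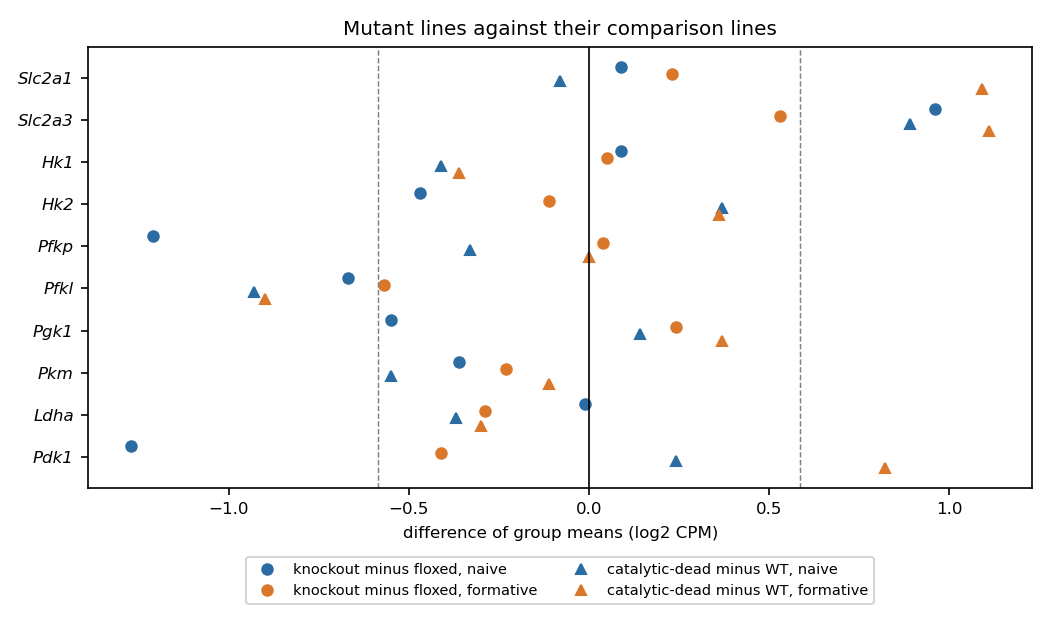
Difference of group means (horizontal axis, log2 CPM) of each member (vertical axis), knockout minus floxed (circles) and catalytic-dead minus WT (triangles), in naive (blue) and formative (orange) cells; dashed lines mark 1.5-fold. Slc2a3 lies right and Pfkl left of 0 in all 4, and Pdk1 stands at -1.27 in naive knockout and 0.82 in formative catalytic-dead cells.

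The floxed line itself differed from WT. In naive cells no member was 1.5-fold higher and 1 was lower, Pgk1 (12.3% of all genes higher and 13.4% lower, 4.06% and 3.29% of the more abundant ones), and its difference of -0.77 log2 did not pass (SE 0.73, limma adjusted p = 0.692). In formative cells Slc2a1 and Slc2a3 were higher by 0.80 and 0.64 log2 and none was lower (13.5% and 13.6% of all genes, 5.14% and 5.8% of the more abundant ones).

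Other genes of the pathway were taken from lists, whose counts in the WT transition stand beside 29.1% of all genes at least 1.5-fold higher and 17.4% lower, and beside 21.3% of tested genes that rose and 12.5% that fell. Of 17 measured genes of other glycolysis steps, 2 were at least 1.5-fold higher and 5 lower in the WT transition, and 9 were tested, of which none rose and 1 fell. Ldhb, the other lactate dehydrogenase subunit, had 132 CPM in naive WT and 53.9 CPM in formative WT cells, without a test. The other lines went the other way, at 49.8 and 107 CPM in floxed and 32.0 and 57.7 CPM in knockout cells. Catalytic-dead cells had 76.1 CPM in the naive and 110 CPM in the formative state. Of the windows at the Ldhb 3' end 24.4% occur in another gene. Aldoc, an aldolase, fell in naive (-1.38 log2, SE 0.24, limma adjusted p = 6.93e-05) and formative knockout cells against floxed (-1.72, SE 0.24, limma adjusted p = 4.02e-06), and in naive catalytic-dead cells against WT (-1.28, SE 0.25, limma adjusted p = 0.000752). Eno3, an enolase, fell in naive knockout cells (-1.31, SE 0.23, limma adjusted p = 0.000152). In naive knockout cells 3 of 9 tested genes fell and none rose (all tested genes: 9.09% and 7.31%), and in formative ones 3 of 8 fell and none rose (6.28% and 10.4%). In naive catalytic-dead cells 2 of 11 rose and 1 fell (8.66% and 5.53%). Pgm1, a phosphoglucomutase, rose there (1.07, SE 0.23, limma adjusted p = 0.0018).

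Among 11 measured regulators and exporters, Slc16a3, which encodes the lactate exporter MCT4, was higher in formative cells of every line, at 544, 361, 299 and 337 CPM against 88.7, 110, 70.6 and 56.1 CPM in naive WT, floxed, knockout and catalytic-dead cells. Tigar, whose product lowers fructose 2,6-bisphosphate and so slows glycolysis, was lower in each, at 115, 111, 98.2 and 131 against 314, 306, 210 and 358 CPM. Txnip, which restrains glucose uptake, stood at 755 CPM in formative catalytic-dead and 650 CPM in formative knockout cells, beside 152 CPM in WT and 237 CPM in floxed cells. Of the 6 tested, Pfkfb3 rose in naive (0.76, SE 0.25, limma adjusted p = 0.0342) and formative knockout cells (1.04, SE 0.19, limma adjusted p = 0.000192), and fell in naive catalytic-dead cells against WT (-0.75, SE 0.26, limma adjusted p = 0.0487). Pfkfb1, of the same family of enzymes that set fructose 2,6-bisphosphate, rose in formative catalytic-dead cells (0.86, SE 0.24, limma adjusted p = 0.0214). Against WT, limma called 4.06% of all 11215 genes under test higher there and 2.88% lower. In the Pfkfb3 comparisons these shares were 7.31% and 9.09% (naive knockout), 10.4% and 6.28% (formative knockout), and 8.66% and 5.53% (naive catalytic-dead). In the WT transition none of the 6 rose and 1 fell.

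Of 12 measured genes of pyruvate entry to mitochondria, 1 was at least 1.5-fold higher and 4 lower in the WT transition. Of the 5 tested there 1 rose, Pdp1 (0.88, SE 0.28, limma adjusted p = 0.0141), and 1 fell, Mpc2 (-0.90, SE 0.23, limma adjusted p = 0.00298). Both were named after their values were seen. Pdp1 rose in the floxed, knockout and catalytic-dead transitions too (0.89, 1.63 and 2.05 log2, limma adjusted p = 0.0158, 8.9e-06 and 1.64e-07). Pdha1, a subunit of the pyruvate dehydrogenase that Pdk1 inhibits, had 261 CPM in naive WT and 132 CPM in formative WT cells. Its means were 242 and 150 CPM in the floxed and 177 and 114 CPM in the knockout line, lower in formative cells too, but 171 and 175 CPM in the catalytic-dead line, without a test. Of the 7 genes of the pentose phosphate pathway, 1 of 2 tested rose in the WT transition, G6pdx (0.68, SE 0.23, limma adjusted p = 0.0249). Of 4 gluconeogenesis genes 3 were tested in that transition and none passed. In naive knockout against floxed cells 1 of 4 rose and 1 fell (7.31% and 9.09% of all tested genes). Pck2 fell (-0.94, SE 0.23, limma adjusted p = 0.00526), and G6pc3, named after its value was seen, rose (1.15, SE 0.31, limma adjusted p = 0.00793). Of the windows at the Pck2 3' end 16.6% occur in other genes.

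Of 25 hypoxia-inducible factors and targets, 18 were tested in the WT transition, of which 4 rose and 4 fell. Epas1, which encodes HIF-2 alpha, fell from 24.2 to 4.92 CPM (-2.30, SE 0.29, limma adjusted p = 2.66e-07), and Egln3, a prolyl hydroxylase, rose (1.42, SE 0.25, limma adjusted p = 8.06e-05). In the floxed transition 6 of 15 tested rose and 1 fell (19.1% and 9.0% of all tested genes), in the knockout transition 9 of 15 rose and none fell (24.4% and 5.94%), and in the catalytic-dead transition 5 of 16 rose and 2 fell (19.3% and 12.2%). At 1.5-fold the floxed transition had 12 of 25 higher and 3 lower (29.0% and 16.7% of all genes). The knockout transition had 12 higher and 0 lower (30.2% and 11.6%). The WT transition had 8 higher and 8 lower (29.1% and 17.4%), and the catalytic-dead one 8 higher and 4 lower (25.5% and 16.8%). Of 11 MYC family genes, 4 of 9 tested rose and 1 fell in the WT transition, with Mxd4, an antagonist of MYC, at 2.05 log2 (SE 0.27, limma adjusted p = 3.39e-07). Of the windows at the Mxd4 3' end 68.3% lie opposite another gene. Myc itself, named after its value was seen, rose in WT by 3.15 log2 (SE 0.56, limma adjusted p = 4.49e-05). It rose in the floxed, knockout and catalytic-dead transitions too (1.63, 3.69 and 1.99 log2, limma adjusted p = 0.0455, 2.87e-06 and 0.00578). Mycn was higher by 2.17 log2 in formative knockout than floxed cells, without a test.

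Among 1680 genes with a mean of at least 5 log2 CPM and a span of at least 1 log2, those most like a member over the 8 group means were named by Pearson's r, as a description over groups that share lines and states. For Slc2a1 these were AW209491 (0.971), Carhsp1 (0.965) and Ube2b (0.952). For Slc2a3 they were Mocs2 (0.936), Dynlt3 (0.933) and Stag1 (0.899), and for Hk1 Prr13 (0.987), Tle5 (0.984) and Nr5a2 (0.982). For Hk2 they were Lactb2 (0.977), Cdc37l1 (0.974) and Cdc5l (0.973), and for Pfkp Hmces (0.992), Tbc1d10b (0.981) and Fntb (0.977). For Pfkl they were Cry1 (0.954), Pak1 (0.93) and Ly6e (0.922). For Pdk1 they were Cecr2 (0.959), Rimklb (0.956) and Dennd6a (0.947). For Pgk1, among 1681 genes, they were Snx10 (0.907), Cemip2 (0.906) and Cfap20 (0.9).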

How the data were processed

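RNA was extracted with Trizol and 200 ng went into QuantSeq 3' FWD libraries read for 50 bases, per the labels' protocols. The submitters' processing notes name cutadapt 2.5, STAR, featureCounts of Subread 1.6.4, DESeq2 1.34.0 and the mm10 build. The authors deposited 1 value per gene and group, which the values show to be a mean of log2 CPM with a prior count of 2. Columns marked CKO were taken as the floxed groups, which no label states. Samples were grouped by their labels.

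Library sizes and whole counts were solved from the means: 23 libraries, 62.1% of genes in all groups. The naive WT column averages 2 libraries. The formative knockout column averages 4, 1 of which also entered the formative catalytic-dead mean and was removed (approximated by that mean where not recovered). Recovered libraries carry no replicate number.

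The members and lists were chosen with earlier results of these data known. All members are named; from a list, genes with the largest difference among those with a mean of at least 3 log2 CPM.

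The recovery settings were varied after results had been seen. The first searched within 1 log2 of the group mean where at most 0.3 solutions were expected by chance, with wider windows added for genes of few counts, and it tested 14 member comparisons of 120, of which 2 passed. Narrower windows of 0.75 and 0.6 log2 were then added after seeing which members had been recovered (21 tests, 3 passed), further narrower ones were tried and dropped, and the limit was raised to 0.5 after the member tests had been seen (28 tests, 7 passed). The last, called the extended recovery, served for a time as the principal one, and the first was then restored as principal. Simulated data hardly separate the 3: in 5 simulated tables for naive knockout against floxed cells (53851 to 59135 gene tests in all), 22.7%, 22.9% and 23.2% of calls at an adjusted p of 0.05 were genes without a change, well above the nominal level. The first setting called 5 of 167 genes changed 1.5-fold, 50 of 162 changed 2-fold and 149 of 167 changed 4-fold. Genes given a change were thus a small part of the 53851 tests. In the real comparison limma called 7.31% of genes higher and 9.09% lower in the principal recovery. The share of false calls depends on how many genes change, so it does not carry over to the real data. Wrong counts in the simulated tables made up at most 0.027% in a group with the first window and 1.5% in the narrower ones. Library values of members printed in the report come from the extended recovery.

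Tests used limma 3.58.1 in R 4.3.3 on log2 CPM, with 1 model for 8 groups, weights from the trend of SD on count (span 0.3), at least 10 counts at the median depth in 3 libraries, and Benjamini-Hochberg adjustment over all genes tested. The p-values measure the spread between libraries, whose cultures were independent per the series' design text. Shared 3' ends were found by matching 50-base windows of GENCODE transcripts.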

Additional observations from a re-analysis of the deposited data

Results flagged for a closer look

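Of the members, Pgk1 alone could be tested for a difference of its transitions between lines, and it did not pass. Of the other genes of the pathway lists, 2 of 42 tested passed limma's interaction test for knockout minus floxed, both higher (4.75% of all tested genes were higher and 3.0% lower). For catalytic-dead minus WT 3 of 46 passed, all higher (2.15% and 2.14%). Epas1, which encodes HIF-2 alpha, changed differently in the knockout than in the floxed line (a difference of transitions of 2.14 log2, SE 0.39, limma adjusted p = 0.000591). It also did so in the catalytic-dead against the WT line (1.70 log2, SE 0.35, limma adjusted p = 0.00317). The levels behind these 2 results differed. Naive knockout cells held 4.88 CPM of Epas1 against 23.9 CPM in naive floxed cells. Formative catalytic-dead cells held 20.0 CPM against 4.92 CPM in formative WT cells. The aldolase gene Aldoc differed between the catalytic-dead and WT transitions (1.25 log2, SE 0.33, limma adjusted p = 0.0246). The other 2 were named after their values were seen: Mxd1, an antagonist of MYC, in the knockout against the floxed line (1.88 log2, SE 0.48, limma adjusted p = 0.0117), and Bnip3, a mitochondrial protein gene and hypoxia target, in the catalytic-dead against the WT line (2.73 log2, SE 0.69, limma adjusted p = 0.0183). Of the windows at the Bnip3 3' end 74.1% lie opposite other genes.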

How the results depend on the processing

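With 2-fold in place of 1.5-fold, the count of members past the fold was 3 in the WT and 4 in the floxed transition, 2 in naive knockout against floxed, 2 in formative and 0 in naive catalytic-dead against WT, and 0 in both comparisons of floxed with WT. Median centring gave 1 in formative knockout against floxed cells (Pfkl), 5 in place of 4 in naive knockout against floxed and 3 in place of 2 in naive catalytic-dead against WT, each time with 1 more lower. Of the settings tried for the limma tests, the recovery setting alone moved the counts of members past the test. With narrower windows and a limit of 0.3 the catalytic-dead transition had 1 member past the test in place of 0 (Hk1). With a limit of 0.5 the WT transition had 2 in place of 1, the floxed and catalytic-dead transitions 1 each and naive knockout against floxed 2 in place of 0. These calls rest on settings chosen after the data were seen. The limit of 0.3 also tested Slc2a1 in naive catalytic-dead against WT cells (-0.08, limma adjusted p = 0.846), which the limit of 0.5 did not. Pgk1 in the knockout transition reached a limma adjusted p of 0.0479 without formative knockout library a, and 0.0509 without it in the extended recovery. Leaving out each library in turn, 9 other Pgk1 differences changed sign, and the cause was not tested: -0.36 to 0.65 in the WT and -0.35 to 0.80 in the catalytic-dead transition, -1.50 to 0.15 and -0.32 to 0.66 in naive and formative knockout against floxed, -0.24 to 0.40 and -0.33 to 0.84 in naive and formative catalytic-dead against WT, -1.46 to 0.18 and -0.28 to 0.81 in naive and formative floxed against WT, and -0.47 to 0.70 between the catalytic-dead and WT transitions. With size factors Pgk1 was at -0.03 in the WT transition and -0.003 in naive catalytic-dead against WT. None of these passed before or after. No paired analysis was possible because recovered libraries carry no replicate number. Where 1 naive WT library was left out, the lone one was assumed to vary like the other groups.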
